A study of Mus musculus with 4 samples.

Results

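The box C/D small nucleolar RNAs (snoRNAs) of the embryonic mouse gonad were followed in 4 libraries of total RNA, 1 for each embryonic day from E11.5 to E14.5. The mice were wild-type C57BL/6J, and each library was made from a pool of male and female (mixed XX and XY) gonads with at least 6 of each sex from 2 litters. The E11.5 pool held the whole genital ridge with the mesonephros, whereas the mesonephros was removed from E12.5 onwards. No group carried a transgene or a treatment, and as each time point is 1 pool of both sexes and 1 library, every difference given here is between those libraries and has no check by replicates. The features were chosen by their symbols (Snord followed by a digit) and selected on having at least 1 count in any library. Of 40999 features in the deposited tables, 76 had such a symbol and 69 were counted in at least 1 library, and each of the 69 was then counted in all 4. At the edge of this rule, Snord1c was the lowest member, with 4, 9, 14 and 7 counts from E11.5 to E14.5. The 7 features outside had 0 counts in every library, which allows up to 3 counts each, or 0.0945 to 0.117 CPM (the counts-per-million unit, here of each library's total). They were Snord1a, Snord7, Snord23 and Snord45c, each of which overlaps an exon of another listed feature, and Snord116, Snord116l1 and Snord116l2, which belong to an imprinted cluster best known from neurons.

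Box C/D snoRNAs are short nuclear RNAs named after their C box and D box, the motifs on which fibrillarin (Fbl), Nop56, Nop58 and Snu13 assemble into a ribonucleoprotein. A guide stretch just upstream of the D box, or of an internal D′ box, pairs with ribosomal RNA (rRNA), and fibrillarin methylates the 2′-hydroxyl of the paired nucleotide. A few members, among them Snord13 (U13), Snord14 (U14), Snord22 (U22) and Snord118 (U8), are known for the processing of pre-rRNA. Most mammalian members are not transcribed on their own but are cut out of the introns of host genes, many of which encode ribosomal proteins or nucleolar proteins.

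All 69 members lay on the same strand as a snoRNA of the GENCODE annotation (release M21, GRCm38), whose sequences are used here. Of the 69, 44 held TGATGA within their first 30 bases, the full second part of the C box, and 15 more held TGATG there. The D box CTGA stood within the last 25 bases of 68 members. Both boxes were found in 58. The sequences had a median length of 80 bases, with a range of 64 to 238. The members of the Rpl13a gene are shown first, as Snord33 had the highest ratio of E14.5 over E13.5. Their C and D boxes are in capitals, 5′ to 3′, and all 4 lie on the minus strand of chromosome 7 of GRCm38.
Snord32a, chr7:45127382-45127464: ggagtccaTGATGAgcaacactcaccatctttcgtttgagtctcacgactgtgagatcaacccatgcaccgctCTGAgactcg
Snord33, chr7:45126864-45126947: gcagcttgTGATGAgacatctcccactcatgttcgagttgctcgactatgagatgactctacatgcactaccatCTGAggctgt
Snord34, chr7:45126601-45126670: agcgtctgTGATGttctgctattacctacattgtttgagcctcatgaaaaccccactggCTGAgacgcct
Snord35a, chr7:45126346-45126435: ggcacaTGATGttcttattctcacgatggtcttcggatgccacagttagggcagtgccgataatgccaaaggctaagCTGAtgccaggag

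To place the guides, the bases up to 2 positions upstream of each CTGA were searched for an unbroken run whose reverse complement is in 18S rRNA (1849 bases, the reverse complement of the GENCODE transcript at this gene, as the deposited tables put the 18S gene on the opposite strand). A run of 10 or more bases was found in 19 of 69 members (27.5%) and in 0 of 42 H/ACA box snoRNA transcripts, the other snoRNA class, searched in the same way. Such a run is a match of letters and not a measured contact, and its absence says nothing about other guides, since G-U pairs and 28S rRNA were not searched. The examples below are members that hold the same or overlapping matches, and Snord57, which held the longest run. Not all members with overlapping matches are shown, and Snord83b is among those left out. Capitals mark the run, and coordinates are those of GRCm38.
Snord14a, chr7:116333171-116333257, minus strand: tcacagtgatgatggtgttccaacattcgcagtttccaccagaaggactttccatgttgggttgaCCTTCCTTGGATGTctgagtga
Snord14c, chr9:40803583-40803668, plus strand: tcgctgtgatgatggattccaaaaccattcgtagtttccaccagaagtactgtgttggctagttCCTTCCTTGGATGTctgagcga
Snord14d, chr9:40803995-40804080, plus strand: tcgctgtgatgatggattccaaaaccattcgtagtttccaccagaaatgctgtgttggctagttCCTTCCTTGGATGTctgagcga
Snord14e, chr9:40804748-40804837, plus strand: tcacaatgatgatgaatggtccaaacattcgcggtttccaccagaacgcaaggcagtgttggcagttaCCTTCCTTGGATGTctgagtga
Snord70, chr1:59691934-59692020, plus strand: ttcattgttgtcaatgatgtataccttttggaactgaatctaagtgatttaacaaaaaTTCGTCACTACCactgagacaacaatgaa
Snord11, chr1:59704790-59704873, plus strand: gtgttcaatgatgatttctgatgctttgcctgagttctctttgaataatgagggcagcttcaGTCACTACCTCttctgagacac
Snord57, chr2:130278016-130278087, plus strand: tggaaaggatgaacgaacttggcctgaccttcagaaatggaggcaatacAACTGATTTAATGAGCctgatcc
The 4 Snord14 members held the same 14 bases, which match positions 465 to 478 of the 18S sequence. Snord70 and Snord11, both in Nop58 introns, matched positions 516 to 527 and 514 to 524. The run of Snord57, an intronic RNA of Nop56, was the longest found, at 16 bases. Snord14c and Snord14d were identical at 84 of 86 bases (97.7%), Snord1b and Snord1c at 97.4% and Snord88a and Snord88c at 94.4%, so reads may have been split between the copies of these pairs and their single values are uncertain.

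Within a library, levels are compared as the deposited TPM (the transcripts-per-million unit), which divides counts by length. TPM spanned from 2.31 for Snord1c to 2556 for Snord49a at E11.5, with a median of 154 over the 69 members. At E14.5 the range was 3.195 for Snord1c to 1868 for Snord22, with a median of 91.4. Snord82, from an intron of nucleolin (Ncl), led at E12.5 and E13.5 with 2201 and 2080 TPM. The 12 highest members were largely shared: 9 members were among the 12 highest in every library and 16 in any. These 9 were Snord22, Snord49a, Snord49b, Snord65, Snord14d, Snord14e, Snord82, Snord87 and Snord118. The 10 members with the most counts held 57.2% to 64.4% of all C/D box counts in a library. The order of levels changed little, with Spearman's rho over the 69 TPM values between 0.955 and 0.987 for the 6 pairs of libraries, although these points share lengths and sequences. TPM rests on the length listed in the tables, which was shorter than the GENCODE sequence by 10 or more bases outside the listed interval in 36 members. Snord68 was listed with 48 of its 86 bases and Snord98 with 28 of 65, and TPM levels of such members are uncertain.

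For comparisons between libraries, counts were scaled by trimmed mean of M values (TMM) factors over all features. A member rose or fell where its ratio was at least 2-fold and the exact 95% interval of its counts left out no change. Of the 69 members, 68 had at least 40 counts summed over the 4 libraries and were kept (Snord1c was not), as were 18664 features in all. The interval covers counting error alone. All ratios are log2 of the later over the earlier library.

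Most members were lower in the middle libraries than in the first and last. Both E11.5 and E14.5 lay above both E12.5 and E13.5 for 59 of the 68 (86.8%), against 15.6% of all features kept. Scaled by total counts, 43 of 68 (63.2%) had this shape, against 2.67% of all features. The summed TMM-scaled level of the 69 members was 1738, 1010, 842 and 2631 CPM from E11.5 to E14.5. As a share of all deposited counts they held 0.189% (95% Wilson interval 0.188 to 0.191), 0.122% (0.121 to 0.124), 0.104% (0.103 to 0.105) and 0.161% (0.160 to 0.163). Without the nuclear rRNA counts these shares were 0.208%, 0.124%, 0.105% and 0.272%. The libraries at both ends therefore held more of these RNAs per count than those between them, and the share at E14.5 was above that at E11.5 once rRNA was left out.

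**Figure D1:**
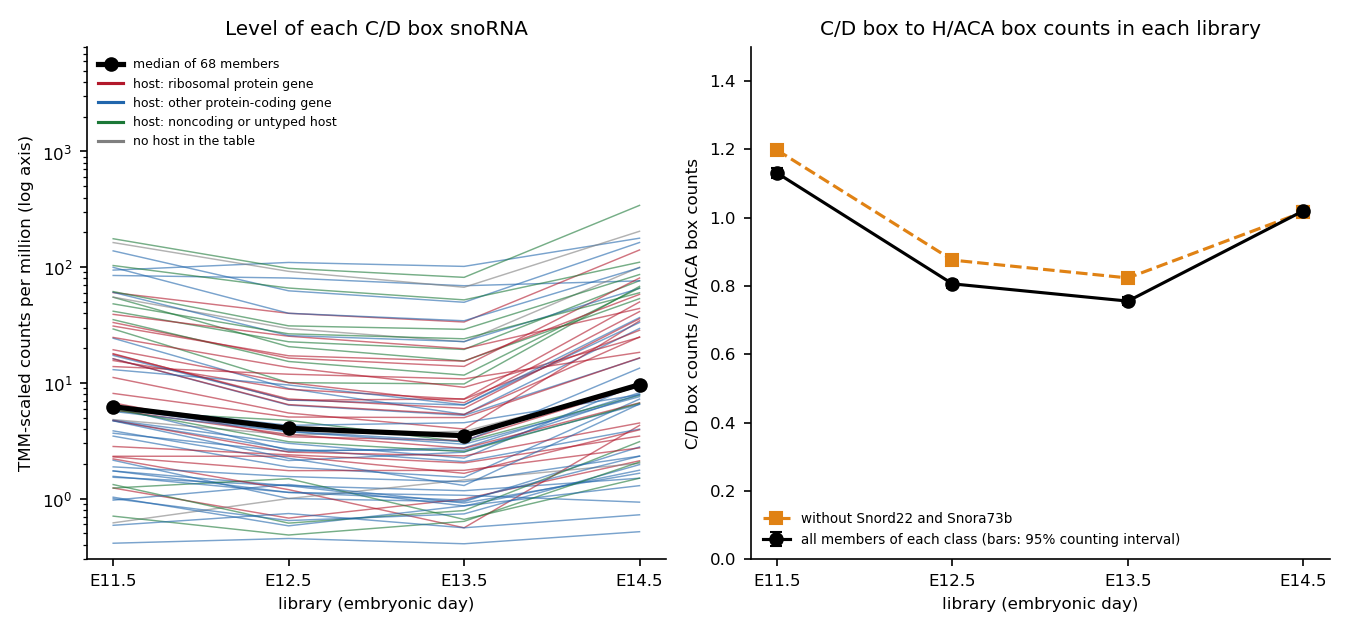
Left, TMM-scaled CPM (log axis) of each of the 68 C/D box snoRNAs in the 4 libraries, with lines coloured by the kind of host gene and the median in black. Right, C/D box counts divided by H/ACA box counts in each library, with 95% counting intervals (smaller than the symbols) and without Snord22 and Snora73b. The median line sinks from E11.5 to E13.5 and climbs at E14.5 (not in the deposited TPM, where the median ratio of that step is -0.02), 59 of the 68 lines have both ends above the middle, and the class ratio goes from 1.13 to 0.756 and back to 1.02.

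Within each library, the balance between the snoRNA classes moved in the same shape. The counts of C/D box members divided by those of 35 H/ACA box snoRNAs, which guide pseudouridylation, came to 1.13 (95% interval 1.12 to 1.14) at E11.5, 0.806 (0.794 to 0.818) at E12.5, 0.756 (0.745 to 0.767) at E13.5 and 1.02 (1.01 to 1.03) at E14.5. This ratio does not depend on the scaling of libraries. Without the most abundant member of each class, Snord22 and Snora73b, it was 1.20, 0.876, 0.823 and 1.02. Abundant members weigh most in such sums. With TMM, the median log2 ratio at E14.5 was 1.55 for C/D box and 1.61 for H/ACA box members, beside -0.83 and -0.57 at E12.5.

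Depth was similar, with 25593453 to 31752562 counts per library, but the share of nuclear rRNA moved with the C/D box levels. Sums of cell type markers also changed between libraries, without the high ends and low middle of the C/D box levels. Nuclear rRNA took 9.06% and 40.7% of the counts at E11.5 and E14.5, against 1.31% and 1.03% at E12.5 and E13.5. The probes and RNase H of the depletion step act on rRNA, and the part that the depletion of each library had in the snoRNA levels was not tested. The markers of the mesonephros and nephric duct summed to 207 scaled CPM at E11.5 and to 78.9 to 115.2 later: all 6 were detected in every library, Pax2 went from 1531 to 60 counts at E12.5, and 3 of the 6 fell 2-fold or more. Germ cell markers (Dazl, Ddx4, Pou5f1 and Dppa3) went from 11.6 to 271 and then 275 to 352, and gonadal somatic markers (of which Nr5a1, Gata4, Amh and Fst rose at E12.5, while Sox9 was at 0.77 and Wt1 at -0.15) from 591 to 1247 and then 1027 to 1125. Erythroid markers went from 327 to between 889 and 1129. In E12.5 versus E11.5 the day and the removal of the mesonephros cannot be told apart, nor can fewer cells of a type and less RNA per cell in any of these pools.

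In E12.5 versus E11.5, the step at which the bipotential gonad becomes a testis or an ovary, 18 of the 68 members fell and 0 rose, or 12 and 0 with total counts and 9 and 0 in the deposited TPM. Of all features kept, 7.53% fell and 8.17% rose with TMM, and 6.23% and 9.82% with total counts. In the deposited TPM these shares were 5.24% and 11.3%, of features detected in both libraries. The median ratio of the members was -0.83, against 0.01 for all features, and 61 of 68 lay below 0. The members that fell most were Snord12, Snord110, Snord47, Snord68, Snord57 and Snord14d. Snord12, from the noncoding host 1500012F01Rik (Zfas1), had 995 counts at E11.5 and 311 at E12.5, a ratio of -1.54 (95% interval -1.73 to -1.36). Snord110 and Snord57 are both intronic to Nop56, a core protein of the box C/D particle itself. They fell by 1.44 and 1.33 on the log2 scale, from 828 to 277 and from 550 to 199 counts. Snord47, from Gas5, fell by 1.42 (1872 to 637 counts). Snord68, from Rpl13, fell by 1.34 (609 to 219 counts). At the other end, Snord64, Snord19 and Snord92 had the highest ratios, at 0.70, 0.45 and 0.34, with intervals that included 0. Snord17, an unusually long member in an intron of Snx5, was at 0.22 (0.15 to 0.29), a small difference that its 3212 and 3403 counts resolved from 0.

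In E13.5 versus E12.5, 2 of 68 members fell and 0 rose, against 1.34% and 2.29% of all features. The median was -0.24 (all features -0.01), and 55 of the 68 lay below 0. The 2 that fell were low: Snord93 had 46 and 26 counts (-1.17, interval -1.92 to -0.44) and Snord35b had 37 and 22 (-1.09, -1.93 to -0.30). The next lowest were Snord61 at -0.78 and Snord110 at -0.74, and the highest were Snord71 at 0.57 and Snord73a at 0.55. Snord33, at 170 and 157 counts, was at -0.46 and did not pass. Most members thus stayed close to their E12.5 level or slightly under it, in the 2 libraries with the least nuclear rRNA.

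In E14.5 versus E13.5, at the time when female germ cells enter meiosis, 52 of 68 members rose and 0 fell, whereas with total counts as the scale 19 rose and 1 (Snord98) fell and in the deposited TPM 6 rose and 5 fell. Of all features kept, 5.05% rose and 1.67% fell with TMM, and 1.31% and 59.6% with total counts. In the deposited TPM these shares were 0.65% and 88.4%, of features detected in both libraries. The median ratio was 1.55, or 2.92-fold, against -0.06 for all features, and 67 of 68 lay above 0. For 39 members the whole interval lay above 2-fold, and 19 rose 4-fold or more. Snord33 rose most, by 3.11 on the log2 scale (95% interval 2.85 to 3.37), which is 8.61-fold. Its scaled levels were 11.1, 5.49, 3.99 and 34.4 CPM from E11.5 to E14.5, and E14.5 stood apart from the other 3. Snord33 overlaps a listed microRNA feature, miR-5121, so reads of the pair may have been split. Next came Snord35b at 2.94, Snord12 at 2.80, Snord68 at 2.78, Snord34 at 2.62 and Snord72 at 2.57. The scaled levels of Snord12 were 29.2, 10.04, 9.79 and 68.2 CPM, and those of Snord68 were 17.9, 7.07, 7.27 and 50.03. Snord72, in Rpl37, went from 17.7 through 7.27 and 6.03 to 35.9. In each of these 3 members E14.5 was the highest library and E11.5 the second highest.

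**Figure D2:**
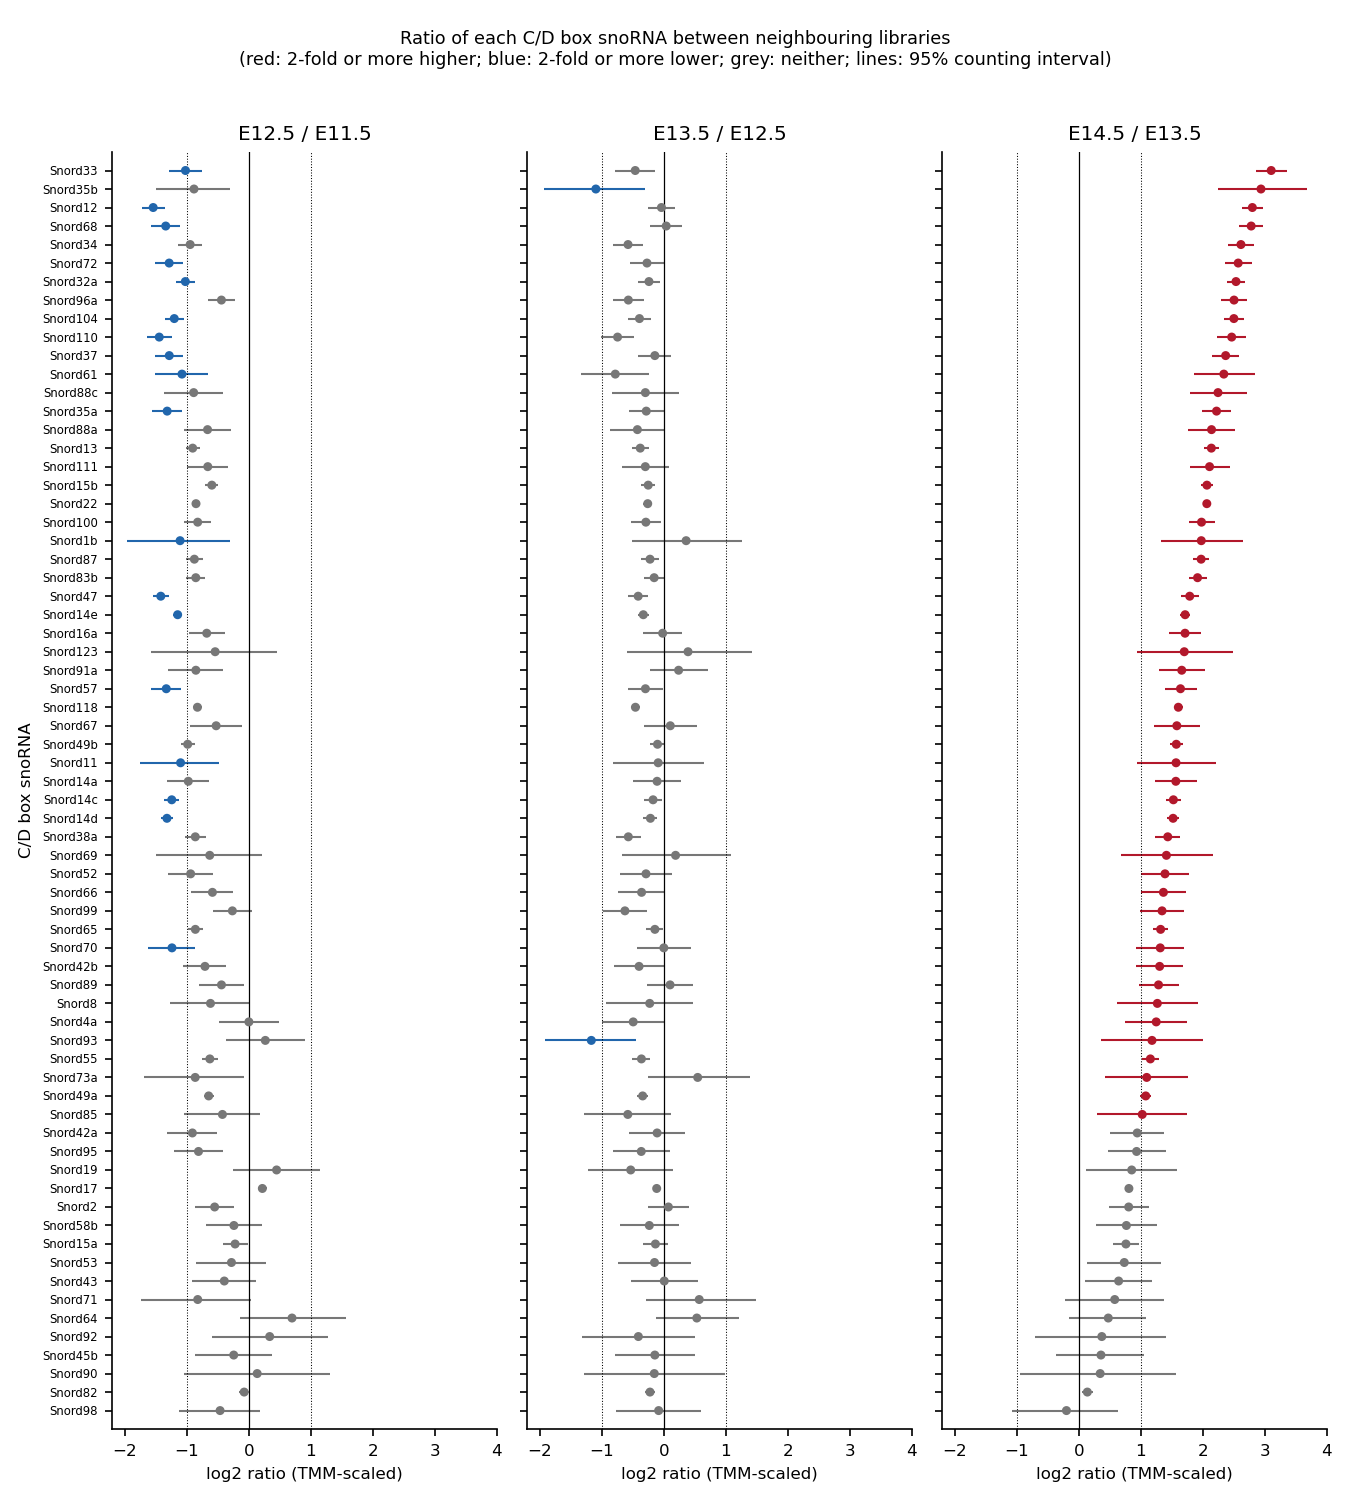
Log2 ratio of TMM-scaled counts for each of the 68 C/D box snoRNAs between neighbouring libraries, ordered by E14.5 over E13.5, with lines for the 95% counting interval and dotted lines at 2-fold. Red marks members 2-fold or more higher (0, 0 and 52 in the 3 panels) and blue those 2-fold or more lower (18, 2 and 0). Scaled by total counts, the third panel would hold 19 red and 1 blue, and by the deposited TPM 6 red and 5 blue. Of all features in that comparison, 5.05% rose and 1.67% fell with TMM, and 1.31% and 59.6% with total counts. In TPM 0.65% rose and 88.4% fell, of features detected in both libraries.

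The size and, in TPM, the sign of these ratios depended on the scale. In unscaled counts, from libraries of 31752562 and 31526303, 51 of 68 members had more counts at E14.5 than at E13.5, against 5.26% of all features, and 19 had at least 2 times as many, against 1.61%. Relative to TMM, total counts moved the median of all features by -1.01 on the log2 scale in this comparison, total counts without nuclear rRNA by -0.28, and the deposited TPM by -1.57. The last had a median over members of -0.02. A scale moves all features of a comparison by 1 constant, so the distance between members and all features is the same under each by construction and says nothing of its stability. The members' median stood 1.60 from that of all features, and 67 of 68 members lay above it. In E12.5 versus E11.5 the shifts were 0.15 for total counts and 0.28 for TPM, the members' median stood -0.84 from that of all features, and 6 of 68 lay above it. In E13.5 versus E12.5 the TPM values shifted by 0.14, and the members' median stood -0.23 from that of all features.

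**Figure D3:**
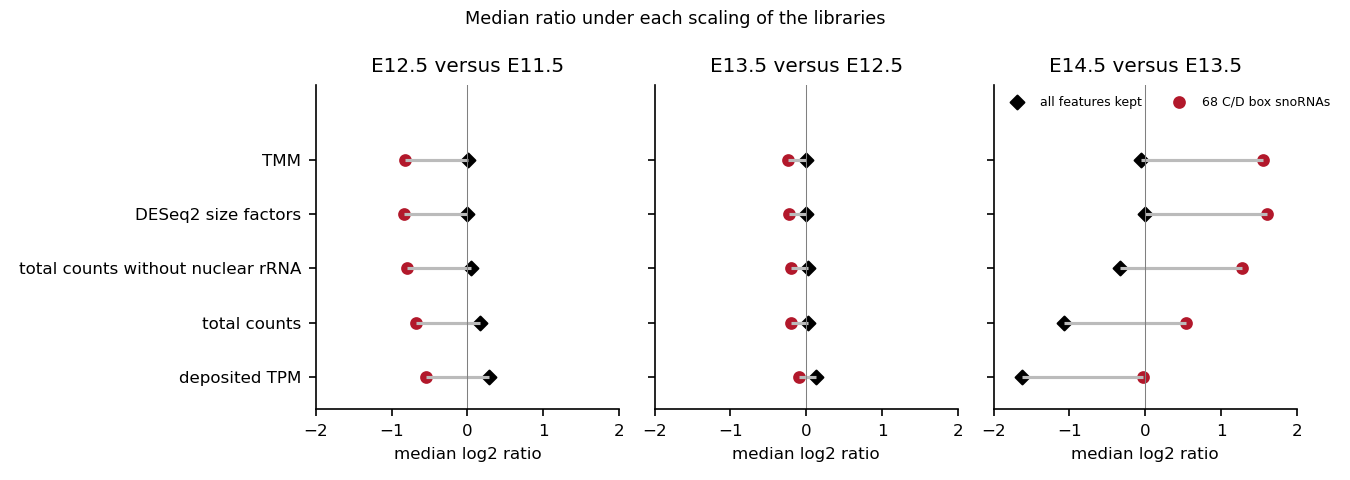
Median log2 ratio of the 68 C/D box snoRNAs (red) and of all 18664 features kept (black diamonds) in the 3 comparisons under 5 scales of the libraries. The gap within a comparison is the same by construction, and both medians move most in E14.5 versus E13.5, where that of the members goes from 1.55 with TMM to -0.02 with the deposited TPM.

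The 18 members that fell at E12.5 were with TMM all among the 52 that rose at E14.5, in a pair of comparisons that share no library. These were 100% of the former and 34.6% of the latter, where 76.5% of all members rose. With total counts, 7 of 12 that fell were among 19 that rose (58.3% and 36.8%). Set against E11.5 directly, 17 members were 2-fold or more higher at E14.5 and 0 were 2-fold or more lower with TMM, whereas 0 were higher and 2 lower with total counts (median -0.34). The order of the first and last library therefore depended on the scale. No share over all features was computed for this pair of libraries. As the E11.5 pool held the mesonephros, the day and its removal cannot be told apart here either. With TMM the median over 68 was 0.48, with a range of -0.74 (Snord98) to 1.71 (Snord64). In TMM-scaled levels, Snord47 and Snord14d were almost the same in both libraries: 55.0 and 53.5 CPM for Snord47, and 99.7 and 98.9 for Snord14d. Snord33 ended at 34.4, above its 11.1 at E11.5, and Snord96a at 36.7, above 13.02.

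By the rule of the smallest listed gene on the same strand that spans the snoRNA, 65 members had a host and these made up 46 genes. Ribosomal protein genes held 21 members, other protein-coding genes 30, and noncoding or untyped genes 14. Snord13, Snord118, Snord64 and Snord89 had none, and the first 2 are known to be transcribed from promoters of their own. At E14.5, 17 of 21 members of ribosomal protein genes rose (median 1.72), 19 of 30 in other protein-coding hosts (1.39), 13 of 13 kept in noncoding hosts (1.70) and 3 of 4 without a host (1.45), against 8, 7, 3 and 1 with total counts. In the deposited TPM the 4 medians were 0.14, -0.18, 0.13 and -0.12. At E12.5, 5, 9, 4 and 0 fell, with medians of -0.86, -0.64, -0.88 and -0.63. The ranges of the 4 classes overlapped throughout.

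Of the 46 hosts, 0 rose or fell in each of the 3 comparisons with TMM. With total counts 40 fell at E14.5, where 59.6% of all features fell. The medians of the hosts were 0.06, -0.01 and -0.11 with TMM, beside 0.01, -0.01 and -0.06 for all features. A member and its host share a library, so their difference needs no scaling. In E14.5 versus E13.5, 64 of 64 members with a kept host had a higher ratio than the host, by a median of 1.64, and in 59 the interval of the difference lay above 0. In E12.5 versus E11.5, 59 of 64 had a lower ratio than the host, by a median of -0.83, and 52 intervals lay below 0. In E13.5 versus E12.5, 53 of 64 were lower, with a median of -0.24 and 25 intervals below 0. Rpl13a, for instance, had 14699 and 7063 counts at E13.5 and E14.5, a ratio of -0.03, while its 4 intronic members lay between 2.22 and 3.11. The correlation of member with host ratios over the 64 pairs was weak (Pearson's r = 0.17, 0.22 and 0.26 in the 3 comparisons), and pairs that share a host are not independent. The exception among hosts was Gas5, a noncoding host gene of snoRNAs, with ratios of -0.80, -0.27 and 0.99 beside -1.42, -0.41 and 1.79 for its Snord47. Whether counts of Gas5 include reads from snoRNAs in its introns was not tested.

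**Figure D4:**
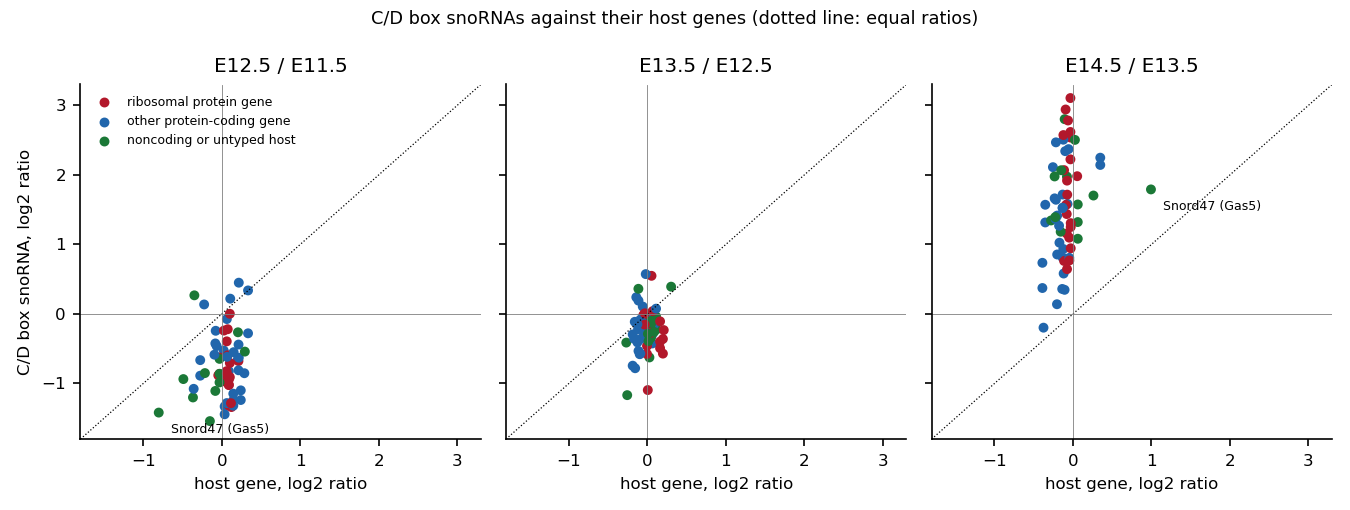
Log2 ratio of TMM-scaled counts of 64 C/D box snoRNAs (vertical axis) against that of their host genes (horizontal axis) in the 3 comparisons, coloured by the kind of host, with a dotted line where both are equal. With TMM most hosts lie near 0 and most members below it at E12.5, and at E14.5 all 64 points lie above the line. A change of scale slides the points along that line.

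Members joined by gaps of at most 10 kb on 1 strand made 50 loci, of which 4 held 3 or more members. One of them includes the 4 members in introns of Rpl13a, Snord35a, Snord34, Snord33 and Snord32a, at chr7:45126347-45127463 (minus strand). Their summed counts were 2719, 1189, 1178 and 3503, with ratios of -1.06, -0.36 and 2.60 (interval of the last 2.502 to 2.694). Of these 4 members, 3 fell at E12.5, 0 passed at E13.5 and 4 rose at E14.5. Snord35b, in the same locus but outside Rpl13a, fell at E13.5 (-1.09) and rose at E14.5 (2.94). Scaled levels of Snord32a were 33.3, 16.4, 13.9 and 80.6 CPM, and those of Snord34 were 19.3, 10.04, 6.74 and 41.3. Those of Snord35a were 16.2, 6.49, 5.34 and 24.9. Per length, Snord33 was the lowest of the 4 in the first 3 libraries, at 208, 124 and 99.6 TPM, whereas at E14.5 its 288 TPM lay above the 193 TPM of Snord35a.

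The Hspa8 locus at chr9:40803583-40804838 (plus strand) holds Snord14c, Snord14d and Snord14e, the U14 copies shown above. Hspa8 encodes a heat shock cognate protein. Their summed counts were 10166, 3966, 4205 and 6340, with ratios of -1.22, -0.26 and 1.62. All 3 fell at E12.5 and rose at E14.5. Snord14e went from 138 through 62.5 and 49.7 to 164 scaled CPM. Snord14a, which lies in Rps13 on chromosome 7 with the same 14-base run, had ratios of -0.98, -0.11 and 1.57. Its 229, 106, 125 and 182 counts make the first of these a near miss of the 2-fold rule. The 4 copies had close ratios in 2 unrelated hosts, but those of Snord14a also lay near the medians of all 68 members (-0.83, -0.24 and 1.55).

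The other 2 loci with 3 members stood lower. In the noncoding host 2410006H16Rik at chr11:62603086-62604586 (plus strand), Snord49b, Snord49a and Snord65 summed to 7254, 3830, 4139 and 4966 counts, with ratios of -0.79, -0.23 and 1.29. Snord49a, the member with the highest TPM at E11.5, was at 103, 66.0, 52.2 and 110 scaled CPM. It rose by 1.08 at E14.5, just past 2-fold. In Rpl23a at chr11:78181302-78183113 (minus strand), Snord42a, Snord4a and Snord42b summed to 439, 261, 264 and 293 counts, with ratios of -0.61, -0.33 and 1.18. Snord42b and Snord4a rose at E14.5, while Snord42a was at 0.94 and did not pass. Snord42a and Snord42b share a run of 11 bases that matches positions 112 to 122 of 18S. With 50 kb as the gap, Snord70 and Snord11 in Nop58 joined and 49 loci remained, with the 4 larger loci as they were.

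Among the 24 pairs of kept members that share a host, the difference of ratios exceeded counting error in 9, 4 and 15 of them in the 3 comparisons in order of age. The largest was between Snord96a and Snord95, both in Gnb2l1 (Rack1), a protein of the small ribosomal subunit. Snord96a went from 254 to 709 counts at E14.5, and Snord95 from 82 to 77. Their ratios differed by 1.57 (interval 1.06 to 2.09), so that Snord96a made up 75.6% of the pair at E13.5 and 90.2% at E14.5. In Rps3, Snord15b went from 1321 to 2723 and Snord15a from 426 to 355, a difference of 1.31 (1.08 to 1.54). These 2 share 66.2% of their bases. In Rpl3, Snord83b and Snord43 differed by 1.27 (0.71 to 1.84). In Nop56, Snord110 and Snord57 differed by 0.83 (0.47 to 1.18). Within Rpl13a, Snord33 exceeded Snord35a by 0.88 (0.53 to 1.24). By contrast, the copies Snord14c and Snord14d differed by less than 0.01 (-0.16 to 0.17). They are identical at 97.7% of bases, so reads may have been split between them. Snord14e exceeded Snord14c by 0.19 (0.04 to 0.34) and Snord14d by 0.19 (0.06 to 0.32). Over the 13 hosts with 2 or more kept members, the SD of ratios within a host at E14.5 was 0.48, against an SD of 0.53 between the means of hosts. At E12.5 these were 0.31 and 0.42, without a test of the difference.

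**Figure D5:**
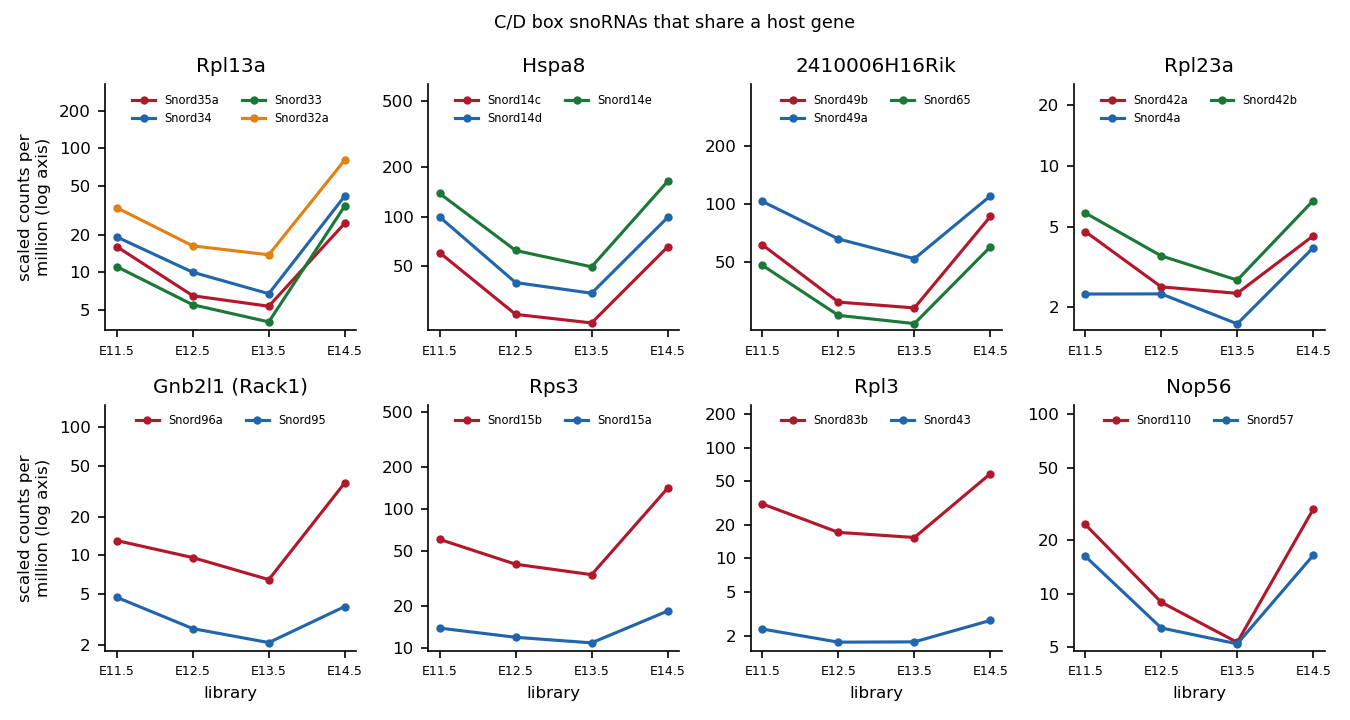
TMM-scaled CPM (log axis) of C/D box snoRNAs that share a host gene, in the 4 libraries, 1 panel per host and 1 line per member. Lines of the Hspa8 copies run nearly in parallel, with the E14.5 ratio of Snord14e 0.19 above those of Snord14c and Snord14d. Snord96a and Snord95 in Gnb2l1, Snord15b and Snord15a in Rps3, and Snord83b and Snord43 in Rpl3 part further at E14.5. Distances between lines within a panel do not depend on the scaling.

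Of the members known for pre-rRNA processing, all 7 rose at E14.5, where 52 of all 68 members rose. With total counts these were 2 of 7 and 19 of 68. The median of the 7 was 1.61, or 0.04 in the deposited TPM, beside 1.55 and -0.02 for all 68. Snord22 (U22), in the noncoding host Snhg1 and needed for 18S rRNA maturation, had 5996, 3025, 3212 and 6613 counts, or 176, 97.7, 81.7 and 342 scaled CPM. Its ratios were -0.85, -0.26 and 2.07 (2.01 to 2.13). Snord118 (U8), needed for 5.8S and 28S rRNA maturation, had 5556, 2849, 2637 and 3949 counts and ratios of -0.83, -0.46 and 1.61. Snord13 (U13), which acts on the 3′ end of 18S rRNA and guides an acetylation there, was at 55.1, 29.5, 22.7 and 99.9 scaled CPM, with ratios of -0.90, -0.38 and 2.14. The 3 members fell short of 2-fold at E12.5, whereas Snord14c, Snord14d and Snord14e passed it. Snord3a (U3) was not analysed here.

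Over the 19 members with an 18S run of 10 or more bases, the median ratio was -0.91, -0.21 and 1.32 in the 3 comparisons. Over the 49 kept without one, it was -0.82, -0.25 and 1.61. The ranges overlapped at E14.5, from -0.20 to 2.47 with a run and from 0.37 to 3.11 without. The GC content of the 68 members correlated weakly with their ratios (Pearson's r = -0.02, -0.20 and 0.23), as did the length of the GENCODE sequence (0.20, 0.08 and -0.02), over points that share libraries and scaling. The level was more closely related: members with higher mean TPM had lower ratios at E12.5 (r = -0.43, Spearman's rho = -0.41) and higher ones at E14.5 (r = 0.33, rho = 0.36). Mean TPM is made from the same counts, and low members have wider intervals.

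Not every member followed. A group of 16 passed in no comparison with TMM. Snord82 had 2887, 2496, 2719 and 1472 counts, or 84.8, 80.6, 69.1 and 76.2 scaled CPM, and ratios of -0.07, -0.22 and 0.14. With TMM its interval at E14.5 (0.05 to 0.23) lay far from 2-fold, whereas in the deposited TPM it fell, from 2080 at E13.5 to 771. Snord17 was at 94.4, 110, 102 and 178 scaled CPM, and with TMM its ratio at E14.5 was above 0 but under 2-fold (0.81, interval 0.74 to 0.88). From E13.5 to E14.5 it went from 3995 to 3442 counts and from 940 to 554 TPM. Snord15a, at 13.8, 11.9, 10.8 and 18.4, was also a well counted member under the rule, with a TMM ratio of 0.76 (0.55 to 0.97). Its counts went from 426 to 355. Snord98 was the single member below 0 at E14.5, at -0.20 (-1.08 to 0.63), from 42 and 18 counts. With total counts as the scale it was the 1 member that fell, at -1.21 (-2.10 to -0.38). Snord90, Snord45b, Snord92, Snord71 and Snord64 had low counts and intervals at E14.5 that reached 0, so that no difference was detectable with TMM at this depth. This depended on the scale, as Snord45b (53.2 to 22.9 TPM), Snord92 (13.8 to 6.01 TPM) and Snord64 fell in the deposited TPM. Snord64, the detected member of the imprinted cluster on chromosome 7, had 21, 31, 57 and 39 counts and scaled levels of 0.617, 1.001, 1.45 and 2.02. Its highest library was E14.5 with TMM but E13.5 in counts and in TPM (64.5 against 30.2 at E14.5).

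Genes for the proteins that carry or act on these RNAs were looked at in the same way. Of all features kept, 59.6% fell and 1.31% rose at E14.5 with total counts, against 1.67% and 5.05% with TMM. At E12.5, 7.53% of all features fell with TMM. Of 17 genes for the box C/D particle, its assembly and its nucleolar partners, 0 rose or fell in each comparison with TMM, while 13 fell at E14.5 with total counts, with TMM medians of 0.05, -0.12 and -0.13. Fbl, the methyltransferase, had 1479, 1475, 1713 and 765 counts and ratios of 0.13, -0.13 and -0.14. Nop58 was at 0.24, 0.04 and -0.35. Of 21 genes for rRNA transcription and pre-rRNA processing, 0 passed with TMM (medians 0.14, -0.12 and -0.11) and 21 fell at E14.5 with total counts. Of 6 genes of splicing, intron debranching and RNA decay, 0 passed with TMM (0.09, -0.08 and -0.18) and 6 fell at E14.5 with total counts. At E14.5 the medians of these protein gene groups lay -0.073, -0.057 and -0.125 from that of all features. Of 35 H/ACA box snoRNAs, 2 fell at E12.5 (median -0.57) and 28 rose at E14.5 (1.61), or 3 with total counts. Of 9 Cajal body RNAs, 2 rose at E14.5 (0.46), whereas 0 rose and 1 fell with total counts. Of 23 other short RNAs, 4 fell at E12.5 (-0.18) and 11 rose at E14.5 (0.77), whereas 0 rose and 1 fell with total counts. At E13.5 these 3 groups had 0 calls, with medians of -0.19, -0.08 and -0.26.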

How the data were processed

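Total RNA from 4 pools was depleted of rRNA, made into stranded libraries with unique molecular identifiers (UMIs), aligned to mm10 with STAR, deduplicated by UMI and counted with featureCounts by the authors. The deposited counts are per feature and not normalized. Their TPM column, also deposited, follows from these counts and the listed exon lengths, as was checked on every feature. Tool versions and the annotation release are not given in the sources used here, nor is the handling of reads with several positions, which bears on near-identical snoRNAs.

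Members and gene lists were chosen with earlier results of these data known. TMM factors came from edgeR 4.0.16 over the 4 libraries together (1.09, 1.21, 1.24 and 0.613), in R 4.3.3. The 95% interval of a log2 ratio came from the later library's share of both counts (Clopper-Pearson, exact), and counts of 3 or fewer were put at 3. A call needed 2-fold and an interval without 0, among features with at least 40 summed counts. With 1 library per time point no p-value was computed, and intervals and floors cover counting error only. Differences within a host carry an exact conditional odds-ratio interval, or a Woolf interval where the host had 20000 or more summed counts. The calculation was tested on simulated data. Python 3.11.15, scipy 1.17.1, pandas 2.3.3 and Biopython 1.88 did the rest.

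The members given with values were the 12 with the highest mean TPM, the 6 largest rises and falls of each comparison, members of loci with 3 or more, those that the study names, those known for pre-rRNA processing and those of imprinted clusters. Members outside this rule (Snord70, Snord11, Snord15a, Snord15b, Snord95, Snord43, Snord83b, Snord1c, Snord88a and Snord88c) were chosen after their values were seen. Alternatives were total counts, total counts without nuclear rRNA, DESeq2 1.42.0 size factors, TMM over protein-coding genes or over the pair, deposited TPM, other count filters, 4-fold, and edgeR's exact test at preset biological variation. Counts of gene groups, and of E14.5 over E11.5, under other scales were added after seeing the data. One host gene is not reported here.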

Additional observations from a re-analysis of the deposited data

How the results depend on the processing

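No paired analysis was possible because each time point is 1 library. Of 119 alternative values for counts, medians, shares and loci, 94 were labelled the same. That label allows counts to differ, as with the 18 members that fell at E12.5 and the 12 with total counts. Many of the 94 could hardly move. At E12.5 and E13.5, 0 members rose under every alternative, and the larger loci kept their members at a gap of 50 kb. The total of 94 is therefore no measure of stability. At E12.5 the 18 members that fell became 9 with the deposited TPM (median -0.55), 0 with the exact test at a preset variation of 0.4, and 0 at 4-fold. At E13.5 the 2 that fell became 1 with the deposited TPM (median -0.10) or at 200 summed counts, and 0 with the exact test at 0.1 or 0.4 or at 4-fold. At E14.5 the 52 that rose became 19 with total counts (median 0.53, 1 fell), 6 with the deposited TPM (median -0.0248, so reversed, and 5 fell), 0 with the exact test at 0.4, and 19 at 4-fold. Total counts without nuclear rRNA gave a median of 1.27. Of all features in that comparison, 59.6% fell with total counts and 88.4% in the deposited TPM, the latter of features detected in both libraries. Under the exact test at 0.4 the 0 calls follow from the wide preset spread, and no p-value rests on replicates.

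Without nuclear rRNA the shares became 0.208%, 0.124% and 0.272% at E11.5, E12.5 and E14.5. The C/D box to H/ACA box ratio became 1.20, 0.876 and 0.823 in the first 3 libraries without the most abundant of each class. For single members, only those that rose or fell with TMM in a comparison could be labelled reversed. A change of sign in any other member was counted as moved, as with Snord82 and Snord17 at E14.5. Of 258 values for single members, 127 stayed within their interval, 120 moved beyond it with the scale and 11 were labelled reversed, all at E14.5 with the deposited TPM. These were Snord14a (-0.0051), Snord14c (-0.0445), Snord14d (-0.0493), Snord42b (-0.27), Snord49a (-0.49), Snord4a (-0.32), Snord65 (-0.25), Snord73a (-0.48), Snord85 (-0.55), Snord93 (-0.39) and Snord99 (-0.23). Depth limits the low members: 15 of the 68 kept had under 200 summed counts. No replicate could be left out.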
